A study of Mus musculus with 38 samples.

Results

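Chromatin of epidermal cells sorted from back skin after 6 weeks of SOX9 induction (W6) was divided by the overlap of 2 histone marks. H3K4me1 domains that shared at least 1 bp with an H3K27ac peak of the same week were called active, domains without such a peak were called primed, and H3K27ac peaks outside every domain were called H3K27ac-only. Of 79556 domains at W6, 20629 were active, or 25.9% (exact 95% Clopper-Pearson interval 25.6 to 26.2%), and 58927 were primed. Of 30516 H3K27ac peaks, 29733 lay in a domain and 783 were H3K27ac-only, or 2.57% (2.39 to 2.75%). That last share depended on the rule of overlap: it was 8.34% when 50% of the shorter interval had to overlap, 9.97% with the stronger part of each list and 1.48% with peaks within 1000 bp of a domain taken as inside. These 110072 W6 intervals belong to the 540407 intervals of both marks that were listed for skin over 5 time points. The split itself fixes that active domains carry H3K27ac, so what follows describes the widths, positions, genes and history of the classes.

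H3K4me1 is laid down by the KMT2C and KMT2D methyltransferases at enhancers, including enhancers that are not in use, which are then called primed. H3K27ac is added by the acetyltransferases p300 and CBP at enhancers and promoters in use. At the promoters of expressed genes H3K4me3 usually takes the place of H3K4me1, so that H3K4me1 often lies on either side of a start site rather than on it. In skin, epidermal stem cells (EpdSCs) keep the basal layer of the epidermis, while SOX9 is a transcription factor of the hair follicle, and basal cell carcinoma is known for hedgehog signalling.

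Cells were sorted from back skin of male K14rtTA; TRE-myc-Sox9 mice, in which the *Krt14* promoter, active in the basal epidermis and the outer root sheath, drives the transactivator and doxycycline (DOX) turns on a myc-tagged *Sox9* transgene. W6 mice received DOX from postnatal day 21 for 6 weeks, and W1 and W2 mice from the same day for 1 and 2 weeks. Per the paper, W12 came from neonatal skin of this genotype grafted onto immunocompromised *Nude* mice, which received DOX for 12 weeks after the grafts had healed. D0 is the same genotype without induction. D0 and W6 thus differ in DOX as well as in SOX9, and the age of D0 mice is not given here. Where D0 and W6 are compared below, SOX9, DOX and age cannot be told apart. Both were sorted as negative for CD31, CD45, CD117, CD140a and CD34, high for CD49f and high for Ly6A. MINT-ChIP, an immunoprecipitation of barcoded chromatin pooled before the antibody step, was performed on 2 replicates of each time point with a high and a low digest by micrococcal nuclease, and the authors merged these into a single list per mark. With 1 list per mark and time there is no spread between replicates and no test of a difference, and every interval given here covers counting error only.

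The labelled cell type was checked against marker genes. Over all protein-coding genes, 38.6% had a start site in an active domain at W6 and 49.6% an H3K27ac peak within 2500 bp of a start site. Of 14 epidermal stem cell markers, 13 had a start site in an active domain at W6 and all 14 had an H3K27ac peak within 2500 bp of a start site. No fibroblast marker (0 of 9) and no immune marker (0 of 12) had an active start site, and neither list had a peak within 2500 bp. The endothelial list had 1 of 8, *Pecam1*, which lay among 13 peaks within 10000 bp of the gene, and the melanocyte list had 1 of 8, *Mitf*. Of the genes behind the negative gates other than *Pecam1* (CD31), *Ptprc* (CD45) and *Kit* (CD117) had no domain on a start site, and *Pdgfra* (CD140a) and *Cd34* were primed without a peak. The part of other cells in any result was not tested.

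Many H3K27ac peaks rested on few reads. The weakest peak called at W6 had 5 reads at its summit, the median peak had 10, and 51.0% of peaks had 10 or fewer, over a genome-wide background of 0.677 reads. At D0 the weakest peak had 4 reads, the median 8, and the background was 0.501, so read numbers of D0 and W6 below are given side by side and are not on a common scale. A primed domain is a domain in which no peak was detectable at this depth.

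Base composition followed position more than class, as given below. A set of 4 short windows around H3K27ac summits (GRCm38, plus strand, RefSeq sequence) shows the range, with every CpG in capitals. These windows differ in position as well as in class, so they do not compare the classes. *Efcab2* carries the strongest H3K27ac-only peak on a protein-coding start site among those that lie off exons and over a local background below 1 read, a limit set after the values were seen (chr1:178406227-178406327). *Rlim*, a ubiquitin ligase gene of the X chromosome, carries the strongest H3K27ac-only peak of X by a start site and was chosen after its values were seen (chrX:103980832-103980932). *Rxra*, the retinoid X receptor alpha gene, holds a summit inside a very wide active domain, 4362 bp from a start site (chr2:27703725-27703825). *Gm21738* is the third strongest H3K27ac-only peak overall and lies in a stretch with a raised local background (chr14:19417797-19417897).
Efcab2: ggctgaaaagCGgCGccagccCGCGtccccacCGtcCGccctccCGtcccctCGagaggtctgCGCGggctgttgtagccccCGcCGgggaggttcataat
Rlim: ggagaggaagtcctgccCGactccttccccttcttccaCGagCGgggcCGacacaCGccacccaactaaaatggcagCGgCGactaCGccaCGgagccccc
Rxra: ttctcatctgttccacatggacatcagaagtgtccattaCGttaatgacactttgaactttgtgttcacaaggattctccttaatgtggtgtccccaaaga
Gm21738: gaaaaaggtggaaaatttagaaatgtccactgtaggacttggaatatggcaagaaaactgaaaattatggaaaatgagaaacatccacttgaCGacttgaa
The *Efcab2* and *Rlim* windows held 12 and 9 CpGs, with 71.3% and 66.3% G+C. The *Rxra* and *Gm21738* windows held 1 CpG each, with 40.6% and 34.65% G+C.

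A further 4 windows come from active domains at genes described below and show matches to transcription factor motifs, in capitals (GRCm38, plus strand, RefSeq sequence, summits off exons). The *Krt14* window (chr11:100205771-100205871), in an intron of the keratin gene whose promoter drives the transactivator, holds the SOX/LEF string AACAAAG on the minus strand. The *Gli1* window (chr10:127339634-127339734), in the gene of the hedgehog effector GLI1, holds the AP1 string TGANTCA. The *Dst* window (chr1:34121595-34121695), in the gene of a hemidesmosome plakin, holds AP1 and the TEAD string ACATTCC on the minus strand. The *Ptch1* window (chr13:63565007-63565107), in the gene of the hedgehog receptor, holds the TFAP2 string GCCNNNGGC.
Krt14: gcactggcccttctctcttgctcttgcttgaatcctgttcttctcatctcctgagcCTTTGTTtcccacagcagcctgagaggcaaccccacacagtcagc
Gli1: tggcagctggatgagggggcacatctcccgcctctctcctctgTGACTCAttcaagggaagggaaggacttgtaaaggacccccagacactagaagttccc
Dst: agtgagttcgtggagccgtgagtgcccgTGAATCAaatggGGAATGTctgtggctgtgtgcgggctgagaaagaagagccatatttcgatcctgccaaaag
Ptch1: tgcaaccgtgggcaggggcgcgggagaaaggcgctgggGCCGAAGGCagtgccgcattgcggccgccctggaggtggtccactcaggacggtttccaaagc
A match describes these letters and does not mark a bound site.

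Active domains were wide and few, and primed domains narrow and many. The median width was 4600 bp for active domains (quartiles 3000 and 7800 bp) and 2000 bp for primed domains (1200 and 3000 bp), a ratio of 2.3, against 2.6 at D0. As a consequence the 25.9% of domains that were active covered 131.7 Mb and the primed domains 140.9 Mb, so that 48.3% of all bases in domains were in active domains. The widest active domain reached 83800 bp and the widest primed domain 27600 bp. A wide domain meets a peak more often by its length alone, which is why the split is also given by width below.

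**Figure D1:**
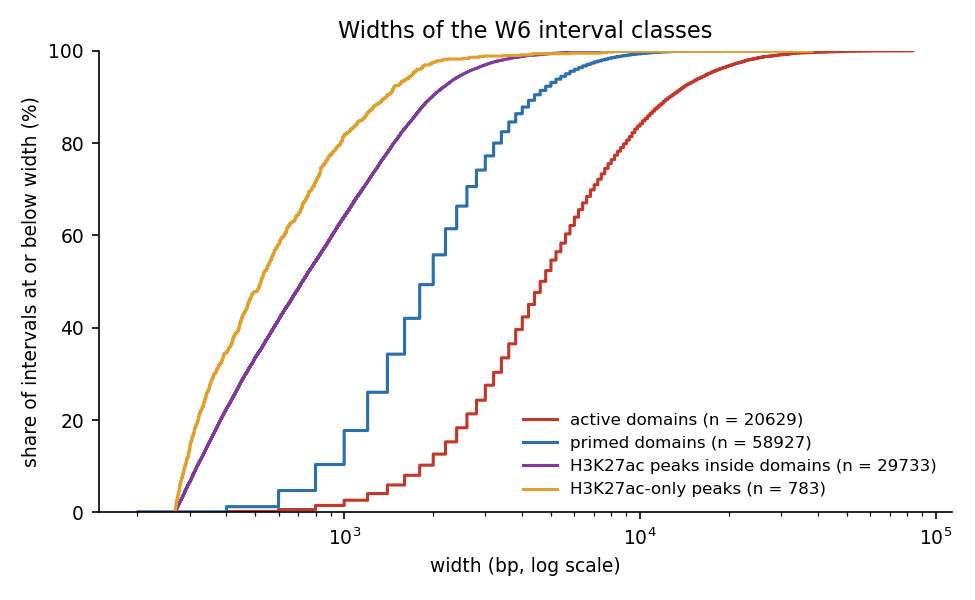
Cumulative share of intervals (%, vertical axis) at or below a given width (bp, log scale, horizontal axis) for the 4 W6 classes, each line being 1 class. The active line lies to the right of the primed line, with medians of 4600 and 2000 bp, and the line of H3K27ac-only peaks lies to the left of that of peaks inside domains, with medians of 524 and 721 bp.

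Within an active domain the acetylated part was small. A single H3K27ac peak was found in 15250 active domains (73.9%), 2 peaks in 3192 (15.5%) and 3 or more in 2187 (10.6%), and 64 domains had 10 or more. H3K27ac covered a median of 19.65% of an active domain, with 10th and 90th percentiles of 6.60 and 43.4%. Most peaks inside domains were covered by the domain from end to end (88.7%), and in 6.62% the summit lay outside the domain although the peak touched it. These last peaks make a domain active by its edge.

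The 5 widest active domains held 16 to 26 peaks each. The widest (chr12:107917801-108001600, 26 peaks) began 1814 bp from a start site of *Bcl11b*, a transcription factor gene used in epidermis and lymphocytes. Those at *Lrig1*, which marks stem cells of the upper hair follicle and restrains EGF receptor signalling (chr6:94619401-94699400), and at *Rxra* (chr2:27677801-27751800) held 20 and 16 peaks. The domain next to *Pkp1*, the gene of the desmosome protein plakophilin 1 (chr1:135843601-135916400), held 25 peaks that covered 51.5% of it. The remaining domain (chr2:167763801-167843800, 22 peaks) covered a start site of *Gm14321* and lay 74886 bp from *Cebpb*. All 5 were active at D0 and at W12 too.

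The widest primed domains were narrower and had a mixed history. The widest (chr1:74081001-74108600, 27600 bp) lay over a start site of *Tns1*, the gene of the focal adhesion protein tensin 1, and was active at D0 and at W12 but without a peak at W6. A 22200 bp domain (chr1:118935401-118957600) covered *Mir6346* 96019 bp from a start site of the hedgehog effector gene *Gli2*, and a 21200 bp domain (chr11:82019001-82040200) covered *Gm31522* and a start site of the chemokine gene *Ccl2*. These were primed at D0 and active at W12. The other 2, between 19800 and 20800 bp wide, lay 20383 bp from *Arhgap10* and 13753 bp from *Lsm3* and were active at D0.

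The share of active domains rose with width on both sides of the distance limit. It was 4.96% of domains up to 1000 bp wide, 24.5% between 2000 and 4000 bp, 52.7% between 4000 and 8000 bp and 97.6% above 16000 bp. Among domains over 2500 bp from a start site the same bins gave 0.613, 12.3, 39.05 and 96.2%, and among domains nearer to a start site 24.2, 49.3, 71.3 and 98.4%. The nearer domains were more often active in every bin, by a margin that was largest in the narrow bins in ratio and small above 16000 bp. Overlaps with peaks per Mb of domain were 61.0 and 54.0 in the 2 narrowest bins and 189.6 above 16000 bp.

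**Figure D2:**
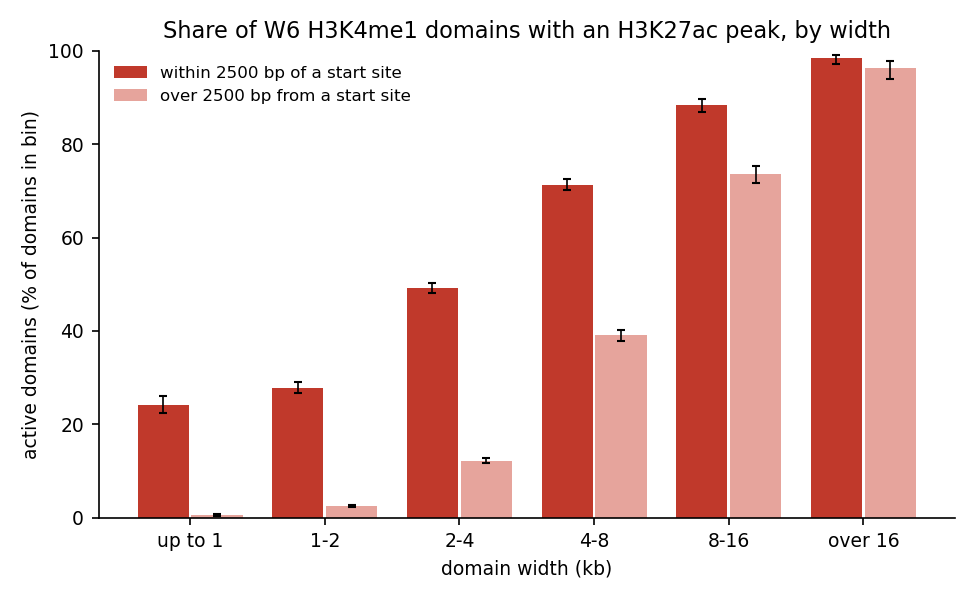
Share of W6 H3K4me1 domains that were active (%, vertical axis) by domain width (kb, horizontal axis), for domains within and over 2500 bp of a start site, with exact 95% binomial intervals as error bars (counting error only). Bars near start sites are the taller ones in all 6 bins, from 24.2 against 0.613% in the narrowest to 98.4 against 96.2% in the widest.

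Active domains also had stronger H3K4me1 calls. The median −log10 p given by the domain caller was 119.3 for active and 22.6 for primed domains, and the p-value was listed as 0 for 20.5% of active and 0.742% of primed domains. The medians were higher for active domains in each width bin up to 16000 bp: between 4000 and 8000 bp the medians were 145.7 and 92.6, and between 1000 and 2000 bp 36.9 and 16.3. Above 16000 bp most p-values of both classes were listed as 0, so the medians cannot be ordered. Since the p-value grows with the reads in a domain, width and p-value are not separate measures.

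Active domains lay at start sites and primed domains away from them. A start site was inside 43.9% of active domains (43.2 to 44.6%) and inside 10.7% of primed domains (10.5 to 10.96%). Over 2500 bp from any start site lay 36.9% of active and 80.1% of primed domains, and over 10000 bp 24.9 and 55.3%. The median distance was 325 bp for active and 12217 bp for primed domains. The difference was present in each width bin: among domains of 2000 to 4000 bp, 33.5% of active and 77.7% of primed domains were distal, and above 16000 bp 34.2 and 55.2%. Once past 2500 bp, the classes were alike in distance, with medians of 16609.5 bp for active and 17511 bp for primed domains.

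By their midpoints, more active than primed domains lay in genes. The midpoint fell in an exon for 10.7% of active and 6.63% of primed domains, in an intron for 59.8 and 52.0% and between genes for 29.5 and 41.4%. D0 gave nearly the same separation, with 38.4% of its active and 79.1% of its primed domains over 2500 bp from a start site.

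**Figure D3:**
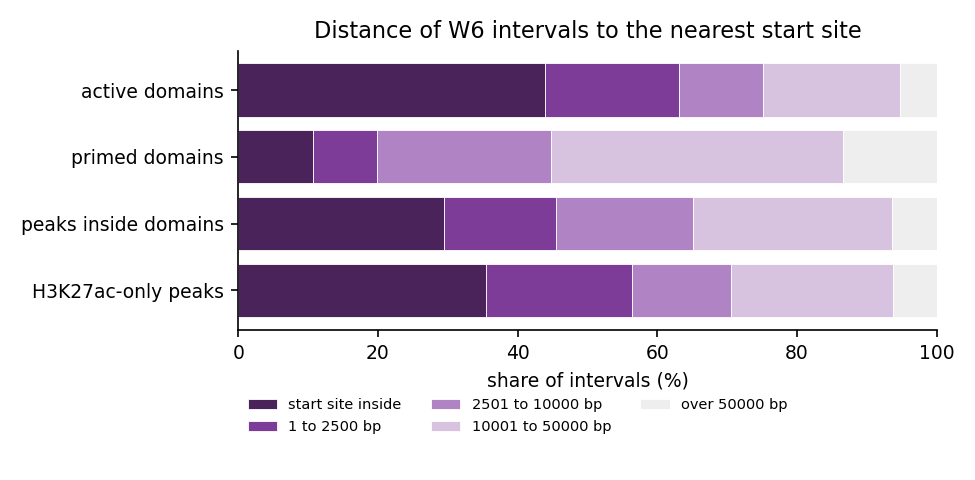
Share of W6 intervals (%, horizontal axis) by distance to the nearest start site, with 1 stacked bar for each of the 4 classes and the distance bins in shades from dark (start site inside) to light (over 50000 bp). The dark part is 43.9% of active domains, 10.7% of primed domains, 29.4% of peaks inside domains and 35.5% of H3K27ac-only peaks.

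H3K27ac-only peaks were a mixed class. A start site lay inside 35.5% of them (32.2 to 39.0%), against 29.4% of peaks inside domains, and 43.7% were over 2500 bp away, against 54.5%. This distal share depended on what counts as overlap, and ran from 10.3% with the stronger part of each list to 66.4% when peaks within 1000 bp of a domain were also taken as inside. The class is described below as 441 peaks on the start-site side and 342 distal peaks.

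H3K27ac-only peaks by start sites were as strong as other peaks there. Their median fold over the local background was 8.95 and their median summit 14 reads, and peaks inside domains near start sites had 9.54 and 15. They were narrower, with medians of 636 and 1017 bp. Their nearest domain was a median of 573 bp away, and 289 (65.5%) had a domain within 1000 bp. Domains stood on both sides within 5000 bp for 156 of them (35.4%). These peaks thus mostly sat beside or between H3K4me1 domains.

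The distal H3K27ac-only peaks were weak and remote. Their median fold was 4.175 and their median summit 7 reads, against 5.39 and 9 for distal peaks inside domains, and 18.1% had the minimum of 5 reads, against 4.50%. The median gap to a domain was 8610 bp, and 74 of them (21.6%) were over 50000 bp from any domain.

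Peaks over a raised local background were frequent in the H3K27ac-only class. A background above 2 reads was found at 44 of the 783 (5.62%) and at 15 of the peaks inside domains (0.0505%). Of these 44 peaks, 35 were distal and 30 were also called at D0. The 5 highest-scoring H3K27ac-only peaks were all of this kind and all in the D0 list: *Gm10800* and *Gm10801* on chromosome 2 with 1313 and 934 reads over backgrounds of 106.1 and 63.9, *Gm21738* with 565, *Gm10722* with 546 in a peak of 38205 bp, and *Gm33838* with 586. These are predicted genes, and the *Gm21738* window printed above is A+T-rich. Without the 44 and the 15 peaks, an alternative chosen after seeing the data, the H3K27ac-only share was 2.43% and its distal share 41.5%.

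H3K27ac-only peaks covered a start site of a protein-coding gene in 255 cases. The highest scores among them were those of *Gm10800*, *Gm10801*, *Gm21738* and *Gm10722* given above. Among those over a local background below 1 read, a limit set after the values were seen, the highest score was at *Ppp2r2a*, a regulatory subunit of protein phosphatase 2A, with 56 reads and a domain 2 bp away. *Eif3e*, a translation initiation factor subunit, had 52 reads, *Cstf3*, an mRNA cleavage factor, 51, and *Cd164*, a sialomucin, 41, with domains 205, 75 and 20 bp away. *Efcab2* had 54 reads and its nearest domain was 7916 bp away. All 5 were in the peak lists of D0 and W12.

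H3K27ac-only peaks were a larger share of the peaks on the sex chromosomes than on any autosome. On X 127 of 461 peaks (27.6%) were H3K27ac-only, against 2.10% over all autosomes, where single chromosomes ran from 1.39 to 2.95%. On Y, with 26 peaks in all, 25 (96.2%) were in the class. D0 gave 138 of 420 on X (32.9%). Domains covered 2.68% of X and 0.0161% of Y, against 8.15 to 16.5% of single autosomes, and the part of this coverage in the share of H3K27ac-only peaks was not tested. Most of the X peaks were by start sites, where 109 of 332 (32.8%) were H3K27ac-only, against 328 of 13627 on autosomes (2.41%). Away from start sites 18 of 129 X peaks (13.95%) were in the class. Domains on X were less often active, 17.0% against 22.3 to 29.6% on autosomes. All animals were labelled male, with a single X, and how copy number and mappability bear on the calls was not tested.

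Several X genes with an H3K27ac-only start site are widely expressed. *Rlim* (38 reads, nearest domain 5320 bp away) and *Ddx3x*, an RNA helicase gene (24 reads, 416 bp), were chosen after their values were seen. *Kdm6a*, which encodes a demethylase of H3K27 and was on the list of chromatin cofactors, had 33 reads with a domain 2445 bp away, and was H3K27ac-only at D0 and W12 too. Among 948 protein-coding X genes 70 were in this class (7.38%) and 119 were active (12.55%). On autosomes 193 of 20807 were in the class (0.928%).

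Base composition followed position more than class. Over windows of 300 bp at H3K27ac summits, peaks by start sites had 61.0% G+C and 7.40 CpGs per 100 bp when H3K27ac-only and 58.3% and 5.73 when inside domains. Distal peaks inside domains had 48.4% and 1.44. Midpoints of distal active and distal primed domains were close to each other, at 46.0 and 45.7% G+C and 1.24 and 1.16 CpGs per 100 bp. All windows of the genome had 41.7% and 0.826. Distal H3K27ac-only peaks stood apart in repeats: 42.5% of their bases were soft-masked in the reference, against 16.8% for distal peaks inside domains and 36.4% for the genome.

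Motif content was compared over the same 300 bp windows for 11 strings on both strands. The strings of transcription factors with a role in hair follicles were ACAATGG for SOX proteins, the shared SOX/LEF string AACAAAG and the RUNX string TGTGGTT. Those of the epidermis and of epithelia were the AP1 string TGANTCA, the p53 family string ACATGTC, the GRHL string AACCGGTT, the TFAP2 string GCCNNNGGC and the KLF string GGGTGTGG. The GATA string AGATAAG, the TEAD string ACATTCC and the ETS string CCGGAAGT completed the set. No string contains another, and the RUNX and KLF strings share TGTGG and can overlap. A window of the genome held the AP1 string in 8.84% of cases. The share was 15.0% (14.65 to 15.3%) at midpoints of distal primed domains, 13.35% (12.6 to 14.1%) at midpoints of distal active domains and 11.2% (10.7 to 11.7%) at distal H3K27ac summits inside domains. It was 4.09% (2.26 to 6.77%) at distal H3K27ac-only summits. The AP1 string was thus at least as frequent at the midpoints of primed as of active distal domains. It allows any middle base, which was C in the printed *Gli1* match and A in that of *Dst*. A midpoint window covers 300 bp only, and active domains were wider, so the rest of the domains was not compared.

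The TFAP2 and ETS strings were more frequent by start sites than away from them, and the KLF string was not. Inside summits had 58.3% G+C by start sites and 48.4% away from them, and the part of composition in these shares was not tested. TFAP2 was in 27.2% (23.1 to 31.6%) of H3K27ac-only and 20.2% (19.55 to 20.9%) of inside summits by start sites in 8.89% of distal inside summits and in 3.96% of genome windows. ETS was in 4.31% and 3.52% of the summits by start sites, in 0.5305% of distal inside summits and in 0.183% of the genome. KLF was in 3.099% of inside summits by start sites, in 3.66% of distal ones and in 1.76% of the genome. SOX/LEF, as printed for *Krt14*, was in 9.52% (8.675 to 10.4%) of distal W6 peaks whose domain was not active at D0, in 7.54% (7.07 to 8.03%) of those whose domain was active at both times and in 8.95% of genome windows. For the SOX string the shares were 4.32 and 3.93%, with overlapping intervals, and 5.25% in the genome. For RUNX they were 7.52 (6.76 to 8.33%) and 6.45% (6.01 to 6.91%), and 6.92% in the genome. Distal D0 peaks gave a similar pair for RUNX, 7.29% (6.57 to 8.06%) where the domain was primed at W6 and 6.47% (6.03 to 6.94%) where it was active at W6. For SOX/LEF the D0 pair was 7.46 (6.73 to 8.24%) and 7.73% (7.25 to 8.24%).

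Genes were classed by their start sites, an active domain taking precedence over a primed domain and that over an H3K27ac-only peak. Of 21938 protein-coding genes, 8470 (38.6%) had an active start site at W6, 3731 (17%) a primed start site, 266 (1.21%) only an H3K27ac-only peak, and 9471 (43.2%) none of these. At D0 the active share was 32.6%. An H3K27ac peak lay within 2500 bp of a start site for 49.6% of genes at W6 and for 46% at D0. The group with none included 1710 genes with a peak on the start site itself, from peaks that reached a domain elsewhere, so "none" does not mean that H3K27ac was missing. The lists below are to be read against these shares, and against the rise of the active share of all genes from D0 to W6.

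Epidermal transcription factors include such genes. For these and all genes below, the reads given are those at the summit of the strongest H3K27ac peak in the gene or within 10000 bp of it, which can belong to a neighbouring gene. Of 18 genes of this list, 11 were active, 7 had no domain on a start site and none was primed, yet all 18 had a peak within 2500 bp of a start site. Active were *Trp63*, the p63 gene that sets epidermal identity (18 peaks within 10000 bp of the gene, strongest 26 reads), *Grhl1* (54 reads), *Grhl2* (42) and *Grhl3* (22), of the grainyhead family of epithelial barrier regulators. *Gata3*, *Klf4* and *Klf5*, regulators of the epidermal and barrier programme, had a peak on a start site that no domain covered, with strongest summits of 39, 31 and 44 reads. At D0 only 4 of the 18 were active although 17 had a peak within 2500 bp, and 6 of the 7 genes that became active had such a peak already. The other, *Prdm1*, which encodes BLIMP1, was named after its values were seen.

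**Figure D4:**
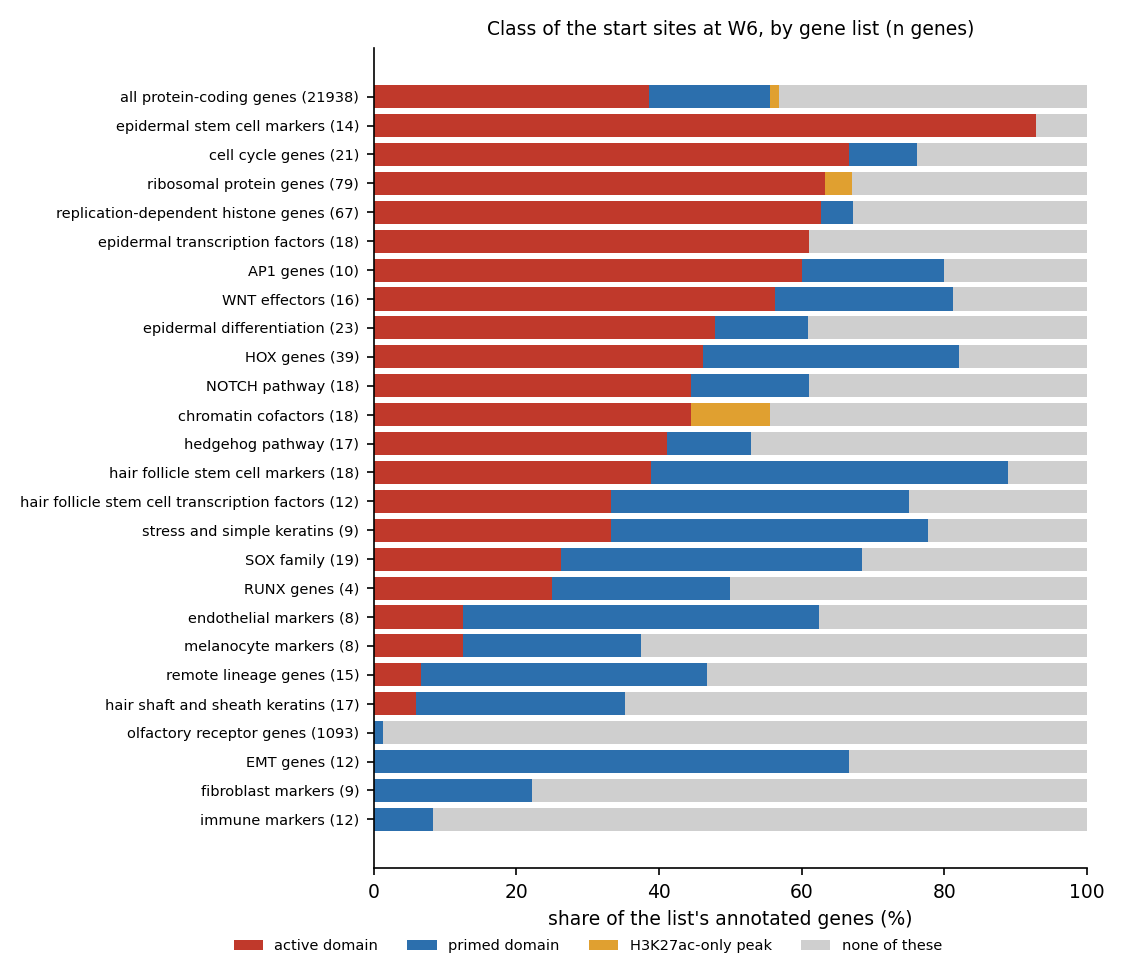
Class of the start sites at W6 for all protein-coding genes (top bar) and for each gene list (number of annotated genes in brackets), as stacked shares in % on the horizontal axis. Epidermal stem cell markers are at the top with 92.9% active, all protein-coding genes have 38.6%, and the EMT, fibroblast and immune lists have 0%.

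Epidermal stem cell markers were active in 13 of 14 cases, against 9 of 14 at D0 with peaks near all 14 at both times. Of the basal keratin genes, *Krt5* had 7 peaks, the strongest with 21 reads at W6 and 27 at D0, and *Krt14* had 37 and 66 reads. The transactivator transgene also carries *Krt14* promoter sequence in both groups, and its reads cannot be told apart from those of the gene. Among hemidesmosome and laminin genes, which anchor basal cells, *Col17a1* had 30 reads at W6 and 99 at D0, *Itgb4* 18 and 45, *Lama3* 20 and 44, *Lamb3* 17 and 24, and *Dst* 19 and 17. *Itga3* had 19 and 12 reads, *Itgb1* 18 and 34, *Cdh3*, the P-cadherin gene, 29 and 24, *Trp63* 26 and 29, and *Ly6a*, the sorting marker, 11 and 14. *Itga6*, which encodes the sorting marker CD49f, was the exception, with no domain on a start site, a peak of 22 reads within 2500 bp and 2 active domains within 10000 bp of the gene.

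Differentiation genes were split. Of 23, 11 were active, 3 primed and 9 neither, and 12 had a peak within 2500 bp. The active share was 47.8%, against 38.6% of all genes, and the share with such a peak 52.2%, against 49.6%. *Krt10*, a suprabasal keratin gene (15 reads), *Sprr1a* (7) and *Sprr1b* (6), of the cornified envelope, were active, and so was *Krt1* (7), without a peak within 2500 bp. *Krt77*, *Ivl* and *Tgm3* were primed, and *Tgm3* had no peak within 10000 bp, where D0 had 4. *Krt2*, *Lor* and *Flg*, of the granular and cornified layers, had no domain on a start site, and of these *Lor* had a peak, with 6 reads.

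Among 12 transcription factor genes of hair follicle stem cells, 4 were active, 5 primed and 3 neither, and 9 had a peak within 2500 bp. The shares were 33.3% active, 41.7% primed and 75% with such a peak, against 38.6, 17 and 49.6% of all protein-coding genes. *Sox9* was active, with 42 reads at W6 and 21 at D0; reads of the transgene's *Sox9* sequence cannot be told apart from those of the gene. *Nfatc1* was active with 15 peaks at W6 and 8 at D0, and *Nfix* with 19 and 19. *Gli2* was primed at D0 and became active, with strongest summits of 11 reads at W6 and 9 at D0. *Lhx2* and *Tbx1* were primed in every sense, without a peak within 10000 bp. *Tcf7l1*, *Tcf7l2* and *Foxp1* were primed at a start site but had 6, 12 and 19 peaks within 10000 bp, and the strongest of the *Tcf7l1* peaks lay in the neighbouring gene *Tgoln1*. *Nfib*, with 31 peaks, *Foxc1*, with 5, and *Runx1* were without a domain on the start site.

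*Runx1* shows how the class of a start site can differ from that of a locus. It was active at D0 and had no domain on a start site at W6, yet 22 peaks lay within 10000 bp of the gene at W6 against 5 at D0, and active domains covered 33.0% of the gene. The strongest summit had 29 reads at W6 and 24 at D0. Of the other RUNX genes, *Runx2* was active at both times with 14 and 8 peaks, *Runx3* was primed without a peak, and *Cbfb*, the gene of the shared partner subunit, had a peak on its start site without a domain (strongest summit 22 reads).

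Hair follicle stem cell markers were more often primed than active, 9 against 7 of 18. The active share of 38.9% was near the 38.6% of all genes, and the primed share was 50%, against 17%. *Krt15* (5 reads), *Cd200* (13) and *Lgr6* (9) were active, and *Cd34*, *Lgr5*, *Postn* and *Fgf18* were primed without a peak within 10000 bp. *Cd34* was selected against by the sort. *Lrig1* and *Gas1* had no domain on the start site, although active domains covered 85.7% of *Lrig1*.

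The hedgehog pathway had 7 active, 2 primed and 8 other genes of 17, so that 41.2% were active, near the 38.6% of all genes. At D0 3 were active, when the share of all genes was 32.6%. Peaks within 2500 bp were found at 9 genes at D0 and at 12 at W6. Of the ligands, *Dhh* was primed and *Shh* and *Ihh* had no domain on a start site, and none of the 3 had a peak within 10000 bp. Of the enzymes and transporters that make and release the ligand, *Hhat* was active at both times (8 reads at W6) and *Disp1* became active (8). Of the receptors and co-receptors, *Ptch1* had a peak on a start site without a domain (24 reads), *Boc* became active with 15 peaks against 6 at D0, and *Cdon* and *Gas1* had peaks without a domain on the start site. *Hhip*, a decoy receptor gene, had no peak.

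Of the hedgehog signal transducers, *Smo* had a peak on its start site without a domain, and the strongest peak in its surroundings lay in *Ahcyl2*. *Sufu*, the inhibitor of GLI proteins, was active at both times with 42 and 45 reads, the W6 summit lying in *Actr1a*. *Kif7* became active with 10 reads and no D0 peak. Of the effectors, *Gli1* was active at both times with 18 reads at W6 and 5 at D0, *Gli2* became active, and *Gli3* had a peak of 13 reads without a domain on the start site. The genes with a peak within 2500 bp at W6 and not at D0 were *Gli2*, *Disp1* and *Kif7*, whose strongest summits within 10000 bp had 8 to 11 reads. The strongest *Gli2* summit, 63165 bp from a start site, had 11 reads, against 9 for the strongest at D0. *Gli2* had 6 peaks within 10000 bp at W6 and 5 at D0.

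Genes of neighbouring programmes showed different mixes. Over all protein-coding genes the active share was 38.6% at W6 and 32.6% at D0. Of 10 AP1 genes 6 were active (60%), among them *Fos* (40 reads), *Fosb* (39) and *Fosl1* (26), and *Batf* and *Batf3* were primed. Of 16 WNT effectors 9 were active (56.25%) against 4 at D0, including *Ctnnb1*, the beta-catenin gene (28 reads). *Lef1*, *Tcf7l1* and *Tcf7l2* were primed at their start sites. Of 18 NOTCH pathway genes 8 were active (44.4%, near the 38.6% of all genes) against 4 at D0, including *Notch2* (26 reads) and *Notch3* (22). Of the stress and simple keratins *Krt6a*, a keratin of wounded and overgrowing epidermis, went from primed without a D0 peak to active with 4 peaks and 20 reads. The W6 domain that held the 20-read peak was 19600 bp wide and overlapped a domain that was active at D0. *Krt16* and *Krt17* (27 each, from the same peak between them) were active at both times, and *Krt7* and *Krt8* were primed, *Krt8* having been active at D0.

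Lists of other lineages differed in how many members were primed, active or neither. Of all protein-coding genes, 38.6% were active and 17% primed at W6, and 49.6% had a peak within 2500 bp of a start site. At D0 32.6% of them were active. Of 12 EMT genes none was active and 8 were primed, among them *Snai1*, *Twist1*, *Twist2* and *Zeb2*, and a peak within 2500 bp was found at 2 genes, *Snai2* and the epithelial cadherin gene *Cdh1*. Of 15 genes of remote lineages 6 were primed, such as *Neurog1* and *Neurog2*, 8 were neither and 1 was active, *Pax6* with 11 reads. Of 17 annotated hair keratin genes 1 was active, *Krt75* (18 reads), 5 were primed and 11 neither, with 3 active at D0. Of 39 HOX genes 18 were active (46.15%, against 38.6% of all genes) and 14 primed. *Hoxb9*, *Hoxb8* and *Hoxb7* (19 reads each) were active and *Hoxb13*, *Hoxb1* and *Hoxc13* primed, while no *Hoxd* gene was active. Of 1093 olfactory receptor genes 1 was active, 13 were primed and 1079 had neither. Of 19 SOX genes 5 were active and 8 primed.

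Ribosomal protein, chromatin cofactor and histone genes had a peak within 2500 bp more often than the 49.6% of all genes. Of 79 ribosomal protein genes 50 were active, 3 were H3K27ac-only and 76 had a peak within 2500 bp, with none primed. The 3 were *Rpl36a* and *Rpl39*, on X, and *Rps23*. Of 18 chromatin cofactor genes 8 were active, 2 were H3K27ac-only, *Kdm6a* and *Arid1b*, and all 18 had a peak within 2500 bp. Of 67 replication-dependent histone genes 42 were active, 3 primed and 22 neither, and 55 had a peak within 2500 bp, against 39 at D0. Many of these genes share near-identical sequence, and reads that could be placed at several copies make their calls uncertain.

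Cell cycle genes were active in 14 of 21 cases against 9 at D0, and 19 had a peak within 2500 bp against 14. Over all genes the active share was 38.6% at W6 and 32.6% at D0, and the share with such a peak 49.6 and 46%. *Ccnd1*, *Ccnd2* and *Ccnd3*, the D-type cyclin genes, were active with 11, 21 and 37 reads. The 5 genes that had such a peak at W6 and not at D0, named after their values were seen, were the cyclin genes *Ccne1* (12 reads), *Ccne2* (9) and *Ccna2* (15), *Mycl* (7) and *E2f1* (15), a driver of entry into S phase.

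Set against D0, most active domains had been active before. Of the 20629 active domains at W6, 15048 (73.0%) overlapped a domain that was active at D0, 5093 (24.7%) a primed domain, and 488 (2.37%) no domain. Of the 58927 primed domains, 8039 (13.6%) overlapped an active D0 domain, 37811 (64.2%) a primed domain, and 13077 (22.2%) no domain. Followed forward, 75.6% of D0 active domains were active at W6, 22.05% primed and 2.37% gone, and of D0 primed domains 11.2% were active, 55.0% primed and 33.8% gone. Primed domains were thus lost from the list more often than active ones, and also newly called more often, and the wider active domains meet a domain of another list more easily.

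**Figure D5:**
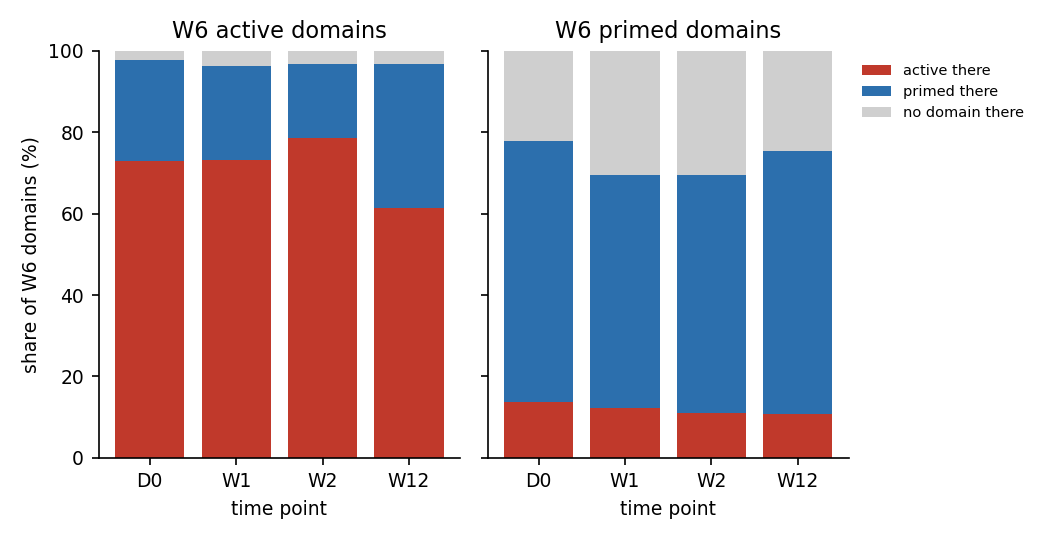
State of W6 active (left) and W6 primed (right) domains at the other 4 time points (horizontal axis), as stacked shares in % of the W6 domains (vertical axis). The active (bottom) part of the bars is 73.0, 73.1 and 78.5% for D0, W1 and W2 on the left and 13.6, 12.3 and 10.9% on the right.

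Active domains that had been primed at D0 were narrower and more often distal than those active at D0 and W6. The 5093 that had been primed at D0 had a median width of 4200 bp and were distal in 54.6% of cases (53.2 to 55.9%), and their strongest peak had a median fold of 5.96. The 15048 active at both times had 5000 bp, 29.7% (29.01 to 30.5%) and 10.1. The 488 without a D0 domain were narrower, 2800 bp, and more distal, 72.1% (67.9 to 76.1%). Of the domains active at D0 and W6, 84.4% were active at W1 and 87.05% at W2. At W12, in grafted skin, 69.5% of them were active, 39.9% of those primed at D0 and 8.78% of those primed at both times. The W12 lists were unlike those of W6: 26.1% of W12 peaks lay outside every W12 domain, against 2.57% at W6. New active domains thus had the weaker peaks, nearer to the detection limit, and unequal depth of the lists was not separated from a change in the cells.

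Across the other 4 lists, 46.2% of W6 active domains had an H3K27ac peak at every other time and 7.39% at none. Of W6 primed domains 77.5% had no peak at any other time, 14.6% at 1 other time and 0.696% at all 4. Of the 783 H3K27ac-only peaks 56.8% were called at D0, 24.0% inside a domain there.

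The gain and loss of active state was seen at genes as well. From D0 to W6, 2297 genes (10.5% of protein-coding genes) became active and 969 (4.42%) ceased to be. Of the 2297, 1232 (53.6%) already had a D0 peak within 2500 bp of a start site, 1094 had been primed and 117 H3K27ac-only. The number with a new peak within 2500 bp was 1270, and 483 lost theirs.

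The strongest peaks of newly active domains were at sites that did not all lack acetylation before. In the W6-active domain within *Filip1l* (chr16:57389401-57391800), 36124 bp from its start site, a peak of 73 reads stood where D0 had no domain. The domain of *Gm6410* (64 reads) also had none. The window at the *Filip1l* summit had 72.3% G+C and 15 CpGs, and how mappability bears on this peak was not tested. The domains next to *Smc3*, a cohesin subunit gene (60 reads), *Litaf* (59) and *Zfp207* (55) were primed at D0. The same W6 peak at *Litaf* and at *Zfp207* touched a further domain that was already active at D0. At *Gm6410*, *Smc3*, *Litaf* and *Zfp207* the summit lay outside the newly active domain, and the peak reached across its edge. At *Smc3* the peak covered 1% of the domain. Whether D0 had a peak at *Filip1l*, *Gm6410* or *Smc3* is not reported here.

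Of the D0-active domains that were not active at W6, those with the strongest D0 peaks lay by *Rpl34* (68 reads), *Sf3b1*, a splicing factor gene (67), *Cep95* (66), *Cflar*, an inhibitor of caspase-8 (60), and *Gm10060* (60). The domain by *Cep95* was primed at W6, and no W6 domain overlapped the other 4. These D0 domains were 400 to 3200 bp wide. By *Rpl34*, *Sf3b1* and *Cep95* the D0 summit lay outside the domain, and the peak reached across its edge. Whether an H3K27ac peak remained at these sites at W6 is not reported here, so the loss of active state does not mean that H3K27ac was lost.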

How the data were processed

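Lists of 2 marks from sorted skin cells at W6 and D0 were used, with W1, W2 and W12 for the history of each W6 domain. Per the study's methods and the submitters' processing notes, adapters were removed with Skewer, reads placed on GRCm38/mm10 by Bowtie2 (2.2.9), freed of duplicates with Picard and merged over replicates with SAMtools (1.9). H3K27ac peaks were called with MACS2 (2.1.1) and H3K4me1 domains with epic2 in steps of 200 bp, which the notes list as SICER (0.0.36). Caller settings and the control are not given in the sources used here, and merging left 1 list per mark and time, so pairs of replicates, digests and their spread cannot be recovered.

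The deposited H3K4me1 files hold the position and the p-value of each domain, as the caller gave it. The deposited H3K27ac files hold the authors' score (10 times the −log10 q-value), fold over background (a ratio) and −log10 p-value. Reads at each summit and the local background were recovered from the fold and the −log10 p-value, with the Poisson tail matched within 0.001. Intervals on chrM (2 per list at W6) were set aside and 21 chromosomes kept.

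Overlap meant at least 1 bp. Distances were to 77221 start sites of GENCODE basic transcripts (GRCm38), and distal meant over 2500 bp. Sequence came from RefSeq GRCm38. Shares carry exact 95% Clopper-Pearson intervals. The computation used Python 3.11.15, numpy 2.4.6, pandas 2.3.3 and scipy 1.17.1 and was tested on simulated data.

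The classes and gene lists were chosen with earlier results of these data known. Loci were named as the 5 widest or strongest of each class, and genes as the members of 4 lists in full and 2 to 4 members, by list order within each class, of the others. Some members of these lists are counted but not reported by name here. Total H3, cultured cells and barcode files were not used here. Alternatives for the overlap, the peaks kept, the distance limit, the start sites and the chromosomes were computed.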

Additional observations from a re-analysis of the deposited data

How the results depend on the processing

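Of 69 alternatives over 9 results, 22 gave values within the counting interval of the reported one. No result had a test, so no call could be lost, and the primed domains were distal more often than the active ones in 10 of 10 settings. The cause of the shifts was not tested beyond what each setting changes by construction. With an overlap of 50% of the shorter interval required, 22.9% of domains were active, 8.34% of peaks H3K27ac-only, the width ratio 2.5, the distal share 41.5% of active, 77.0% of primed and 15.2% of H3K27ac-only intervals, 37.2% of genes active and 31.1% of active domains primed at D0. With peaks of −log10 q of at least 3, these values were 23.7%, 2.20%, a distal share of 33.6% of active domains and 29.3% of H3K27ac-only peaks, 37.7% of genes, 26.1% of active domains primed at D0 and 11.2% of primed domains active at D0. With only the stronger part of each list they were 29.15%, 9.97%, a ratio of 1.59, 24.5, 73.9 and 10.3% distal, 29.6% of genes, 22.7% and 12.95%. With peaks within 1000 bp of a domain taken as inside they were 26.85% active, 1.48% H3K27ac-only, 35.9, 81.0 and 66.4% distal and 21.4% of active domains primed at D0. Joining intervals less than 1000 bp apart gave a ratio of 2.6, 52.5% distal H3K27ac-only peaks and 41.55% of genes active. Without X and Y, 2.10% of peaks were H3K27ac-only, 48.0% of them distal, and 40.1% of genes were active. A limit of 1000 bp gave 40.6, 85.3 and 47.5% distal, a limit of 10000 bp 24.9, 55.25 and 29.5%, and start sites of protein-coding genes alone 45.2, 88.6 and 49.55%. Counting start sites within 2500 bp of an active domain, 49.8% of genes were active. With D0 and W6 lists of equal length, 23.9% of active domains were primed at D0. Leaving out peaks over a raised local background, chosen after seeing the data, gave 25.9, 2.43 and 41.5%, within the intervals. No paired analysis was possible because the replicates were merged into 1 list per mark before deposit, and for the same reason no replicate could be left out.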
